A study of Mus musculus with 6 samples.

Results

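The genes described here run the cell's glutathione and peroxide defence, and they were taken from the table of all genes by their symbols: glutathione peroxidases (Gpx), cytosolic and membrane-bound glutathione transferases (Gst, Mgst), peroxiredoxins (Prdx), thioredoxins and their relatives (Txn), superoxide dismutases (Sod), metallothioneins (Mt), and Gclc, Gclm, Gss, Gsr, Cat, Hmox1 and Nqo1. The rule took 79 of 55487 genes. Of these, 9 are pseudogene rows, 6 had no reads in any of the 6 libraries, and 62 passed the filter of a normalized count of at least 10 in at least 3 libraries. The 17 that did not pass had normalized counts of at most 22.2.

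Glutathione is a tripeptide that serves as the main soluble thiol of the cell. Glutamate-cysteine ligase (Gclc, the catalytic subunit, with Gclm, the modifier) and glutathione synthetase (Gss) make it, peroxidases spend it to reduce peroxides, transferases attach it to reactive compounds, and glutathione reductase (Gsr) restores it. Peroxiredoxins reduce peroxides with electrons from the thioredoxin system, superoxide dismutases turn superoxide into hydrogen peroxide, and catalase breaks that peroxide down. Many of these genes are targets of the transcription factor NRF2 (Nfe2l2), which binds antioxidant response elements, and in brain much of this defence is carried by astrocytes and the stem cells that resemble them.

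RNA-seq was done on YFP-positive cells sorted from the subventricular zone (SVZ), the neural stem cell niche of the adult mouse brain. THC mice carried Rb(F/+);p107(+/-);p130(F/+) and TKO mice Rb(F/F);p107(-/-);p130(F/F), where F is a conditional allele, so the control is itself heterozygous for all members of the Rb family of cell-cycle repressors. Both genotypes, on a mixed C57BL/6;Sv/129 background, carried NestinCreERT2 and an R26 EYFP reporter and were given tamoxifen by mouth (200 mg/kg daily, 5 days) at 6 to 10 weeks of age. The SVZ was dissected 10 days after dosing ended. Loss of Rb and p130 is limited to cells in which the Nestin-driven Cre acted, while p107 is lacking throughout. There were 3 libraries per genotype, each from a pool of mice with at least 200000 YFP-positive cells, and the p-values measure the spread between these pools. The labels give a February batch with 1 library per genotype (THC 1 and TKO 1) and a November batch with 2 of each.

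Library depth was 15536084 to 16961817 reads on genes. Rbl1, the p107 gene, was at 497 to 646 in THC and 14.5 to 42.0 in TKO, in keeping with their p107 labels; counts over the whole Rb1 and Rbl2 genes check nothing about the deleted exons. Markers of the SVZ lineage were present in every library, and markers of other cells were too. Summed over its genes, the quiescent stem cell and astrocyte list was at 243291 to 399050 in THC and 198008 to 252493 in TKO (6 of 12 genes lower, 1 higher), the oligodendrocyte list at 88882 to 96920 and 16314 to 26834 (8 of 8 lower), the endothelial list at 6709 to 15359 and 3023 to 4194 (8 of 9 lower) and the red blood cell list at 946 to 3209 and 322 to 535 (5 of 5 tested lower). The microglia and macrophage list was at 382 to 3284 and 759 to 5563 (5 of 9 higher), and the activated progenitor list at 12676 to 17134 and 36230 to 41862 (3 of 6 higher). Lower sums in TKO were also found for the neuroblast list (36965 to 51731 and 24629 to 33477, 6 of 8 genes lower), the neuron list (1602 to 2597 and 978 to 1094, 3 of 6 lower) and the pericyte and fibroblast list (5276 to 8785 and 2526 to 4389, 4 of 7 lower, 1 higher). The ependymal list was at 3930.3 to 12738 and 4834 to 6238 (3 of 6 lower, 1 higher), and the oligodendrocyte progenitor list at 3425 to 11755 and 5822 to 8543 (1 of 5 higher). The choroid plexus list was at 128 to 453 in THC and 162 to 2211 in TKO (none of 2 tested called). On that list TKO 1 stood apart for Ttr, at 1887 against 1.01 to 12.6 in the other libraries. It was also highest for Kl (44.9 against 0 to 9.44) and Kcnj13 (37.1 against 0 to 9.44). For Clic6 and Folr1, the genes tested, TKO 1 lay within the range of the THC libraries. Of the 22 defence genes called below, 17 were also called without TKO 1. No marker on these lists was at 0 in all libraries. In a bulk sample fewer cells of a type and less RNA per cell cannot be told apart, and the part that these lists play in the results for the defence genes was not tested.

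The defence genes did not move as a block: TKO cells had more of a few peroxidases, above all Gpx3 and Gpx7, and less of extracellular Sod3, catalase and 3 mu-class transferases (Gstm1, Gstm5 and Gstm7). Of 62 genes tested, 10 rose and 12 fell in TKO at an adjusted p under 0.05 (limma with batch in the model, Benjamini-Hochberg adjustment over all 17278 genes tested), which is 35.5% of them. The falls include the pseudogene row Gstm2-ps1, and without pseudogene rows 10 of 59 rose and 11 fell. Among all genes tested 27.9% were called, 14.3% higher and 13.6% lower, so the share of defence genes called lay above the background by a modest margin, and nothing is read from it. The median log2 change was -0.11 (-0.09 within February and -0.14 within November), against 0.00 over all genes. At least 2-fold changes were made by 4 of the genes that rose and 3 of those that fell. Log2 changes here are on the scale of log2(normalized count + 1), and a normalized count is the reads of a gene divided by a scaling factor of its library.

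**Figure D1:**
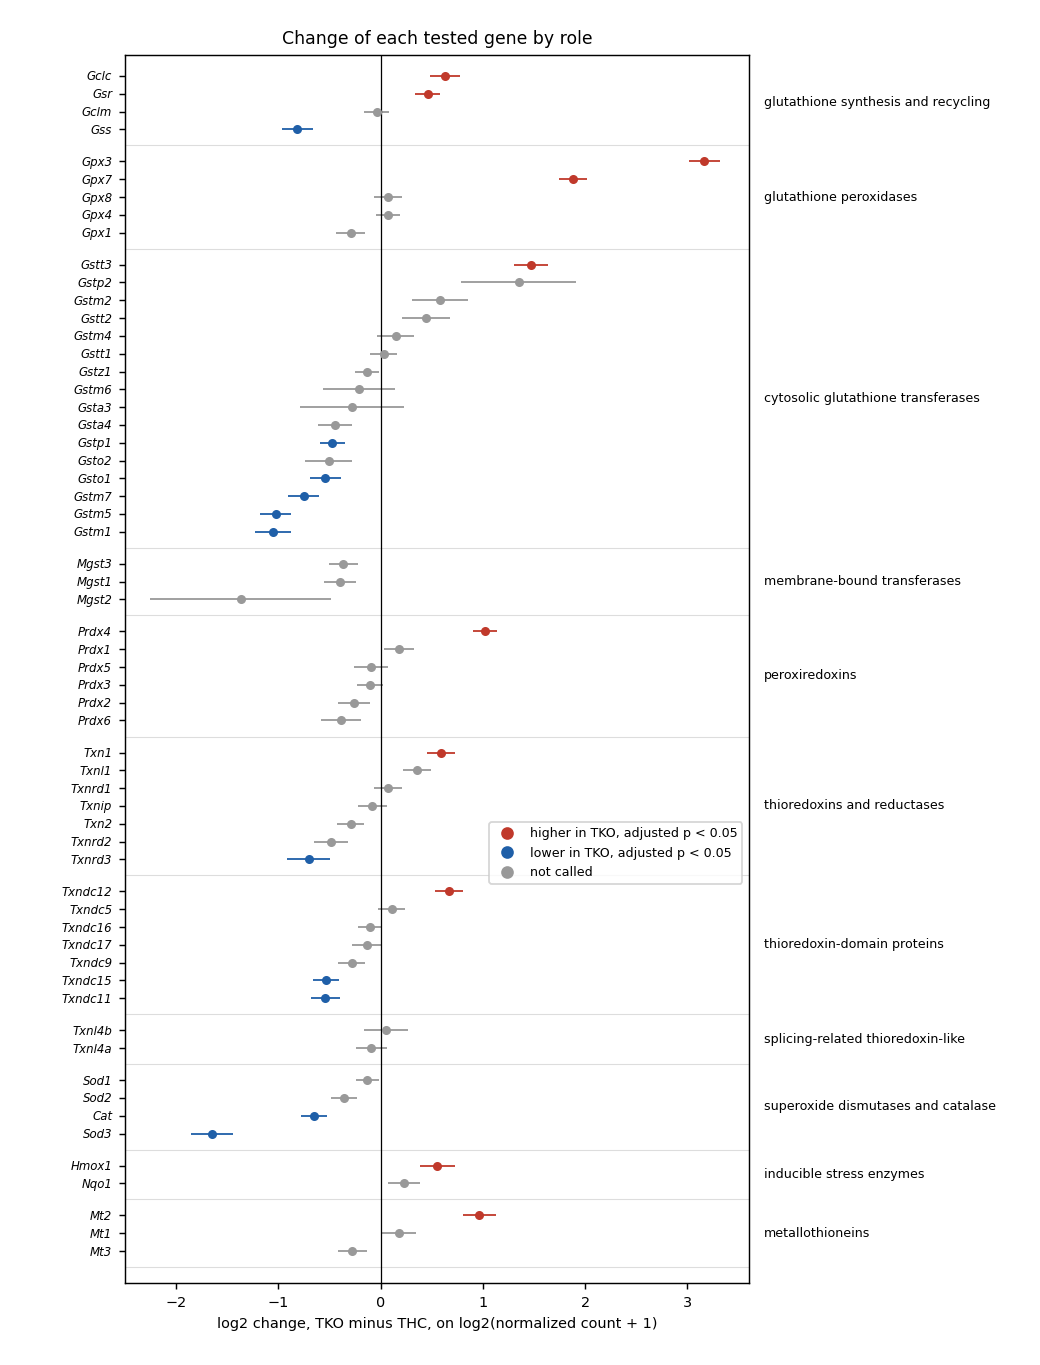
Log2 change between TKO and THC (x axis, TKO minus THC) of the 59 tested genes that are not pseudogenes, grouped by role; points are the limma estimates, bars their SE, and colour marks genes called higher (red) or lower (blue). Gpx3 stands farthest to the right at 3.16 and Sod3 is the lowest of the called genes at -1.64.

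The values of the TKO libraries did not overlap those of the THC libraries for 31 of the 62 genes (50%, against 38.9% of all genes tested). Of these, 21 were called. The other 10 had non-overlapping groups but missed the threshold, with TKO below THC for 7 (among them Sod2, Gpx1, Mgst1, Mgst3 and Txnrd2) and above for 3 (Prdx1, Txnl1 and Gstp2). All 22 called genes had the same sign in February and in November, while 8 tested genes that were not called had opposite signs. No defence gene passed a test of the batch by genotype interaction (lowest adjusted p = 0.67, limma). February has 1 library per genotype, so that test could find only large differences and does not show that the batches agree.

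Glutathione synthesis was split between its steps, with Gclc and Gsr higher in TKO, Gss lower and Gclm not called. Gclc, which carries the rate-limiting activity, was at 1725, 2215 and 2002 in THC 1, 2 and 3 and at 3602, 2706 and 2917 in TKO 1, 2 and 3. Every TKO library lay above every THC library, and the February TKO library was the highest. Its log2 change was 0.63 (SE 0.15, adjusted p = 0.0072), or 1.06 between the February libraries and 0.42 between those of November. The call ended when a February library was left out (adjusted p = 0.085 without THC 1 and 0.081 without TKO 1). Its partner Gclm showed no such difference, at 2491, 2262 and 1916 in THC and 2304, 1968 and 2201 in TKO (log2 change -0.04, SE 0.12, adjusted p = 0.86). Gss, the enzyme of the next step, went the other way, from 604 ± 21.4 to 344 ± 38.1 (SD, n = 3 each). It was at 624, 582 and 605 in THC and 339.6, 385 and 309 in TKO, well apart, and fell by 0.81 (SE 0.15, adjusted p = 0.0017). Part of Gss lies across the opposite strand of Acss2 (6.68% of its exon length), which fell as well (log2 change -1.36), and the libraries keep no strand. Gsr, which recycles oxidised glutathione, was at 926, 976 and 1034 in THC and 1345, 1432 and 1263 in TKO and rose by 0.46 (SE 0.12, adjusted p = 0.015). That call ended when THC 1, TKO 1 or TKO 2 was left out (adjusted p = 0.075, 0.076 and 0.069).

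The 250 bases before the Gclm start are shown as the textbook case of a glutathione gene with an antioxidant response element, here not called in TKO (RefSeq, GRCm38.p6, plus strand, chr3:122245307-122245556). Capitals mark matches, on either strand, to the core of that element, TGACNNNGC, and to the core of the metal response element, TGCNCNC. The first capital run holds 1 match to each, overlapping, and the second a further match to the metal response core.
Gclm: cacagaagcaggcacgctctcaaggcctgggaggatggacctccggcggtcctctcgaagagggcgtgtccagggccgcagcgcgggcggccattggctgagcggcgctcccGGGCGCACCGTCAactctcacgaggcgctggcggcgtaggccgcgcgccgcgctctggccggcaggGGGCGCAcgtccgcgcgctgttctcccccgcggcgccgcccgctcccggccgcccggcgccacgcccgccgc
A match is a description of letters and not a bound site.

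Among the glutathione peroxidases, Gpx3 and Gpx7 rose. Gpx1, Gpx4 and Gpx8, which within THC each had higher counts than Gpx3 or Gpx7, were not called. Gpx3, the secreted plasma-type selenoenzyme (chromosome 11, 54902453 to 54910377, GRCm38), was at 101, 143 and 139 in THC and at 1046, 1191 and 1187 in TKO. The libraries of each genotype lay close together, with a wide gap between the groups in both batches. This is an 8.96-fold rise (log2 change 3.16, SE 0.15, adjusted p = 2.9e-07), from 128 ± 23.0 to 1141 ± 82.4. Gpx7, a peroxidase of the endoplasmic reticulum that hands oxidising power to protein folding (chromosome 4, 108400390 to 108406961), was at 244, 306 and 343 in THC and 894, 1163 and 1245 in TKO. It rose 3.69-fold (log2 change 1.88, SE 0.14, adjusted p = 2.8e-06) and by nearly the same amount in each batch (1.87 for the February pair, 1.89 for November).

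Its closest relative Gpx8, also of the endoplasmic reticulum, had overlapping groups at 999 to 1366 and 1051 to 1320 (log2 change 0.08, SE 0.14, adjusted p = 0.73). Gpx4, which reduces lipid peroxides in membranes, was at 1792, 2261 and 2416 in THC and 2111, 2347 and 2294 in TKO (log2 change 0.07, SE 0.12, adjusted p = 0.71), and 34.7% of its 50-base windows also occur in transcripts of other genes, mostly the pseudogene Gpx4-ps2. Gpx1, the common cytosolic form, was at 958, 1248 and 1034 in THC and 955, 839 and 840.2 in TKO. All its TKO values were below those of THC, though by very little, and the change of -0.29 (SE 0.14, adjusted p = 0.15) did not pass. Gpx2, Gpx5 and Gpx6 were below the filter, with no value above 4.30.

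The 250 bases before the RefSeq starts of both peroxidase genes that rose are shown because these are the strongest changes among the defence genes (GRCm38.p6, Gpx3, plus strand, chr11:54902604-54902853, and Gpx7, minus strand, chr4:108406714-108406963). All of the Gpx3 window and nearly all of the Gpx7 window lie within the gene spans given above, which come from GENCODE. Bases before the GENCODE starts were not examined for Gpx3, and hardly for Gpx7. Capitals mark the same cores as above. Neither window holds the antioxidant response core, and Gpx7 has 1 match to the metal response core.
Gpx3: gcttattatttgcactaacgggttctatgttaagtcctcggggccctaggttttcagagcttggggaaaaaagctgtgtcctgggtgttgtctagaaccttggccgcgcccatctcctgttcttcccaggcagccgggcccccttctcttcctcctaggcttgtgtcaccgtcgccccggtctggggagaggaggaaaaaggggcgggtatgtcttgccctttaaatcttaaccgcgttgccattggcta
Gpx7: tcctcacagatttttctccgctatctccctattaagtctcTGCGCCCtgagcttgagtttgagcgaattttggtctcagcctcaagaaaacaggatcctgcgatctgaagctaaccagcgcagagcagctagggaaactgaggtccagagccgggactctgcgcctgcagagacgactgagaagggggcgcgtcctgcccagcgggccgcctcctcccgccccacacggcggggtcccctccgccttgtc
Over the 60 defence genes with a RefSeq window, here of 250 bases before and 50 after the start, TGACNNNGC was found for 12, against 14.0% of the 27025 genes in the table and 12.4% of its 32851 windows. It was present for 1 of 7 genes that rose (Mt2), 3 of 10 that fell (Gstm5, Gstm7 and Txndc11) and 7 of 33 that were not called. Gclc, Gsr and Hmox1, which also rose, had no window and were not examined, and neither were Sod3 and Gstm2-ps1, which fell. These counts therefore do not describe all called genes. E2F sites (TTTCGCGC, TTTGGCGC or TTTCCCGC, both strands), of interest because the Rb family acts through E2F factors, were found for 2 defence genes, Gsto2 and Txndc17 (3.33%, against 2.12% of genes and 1.84% of windows), and neither gene was called.

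**Figure D2:**
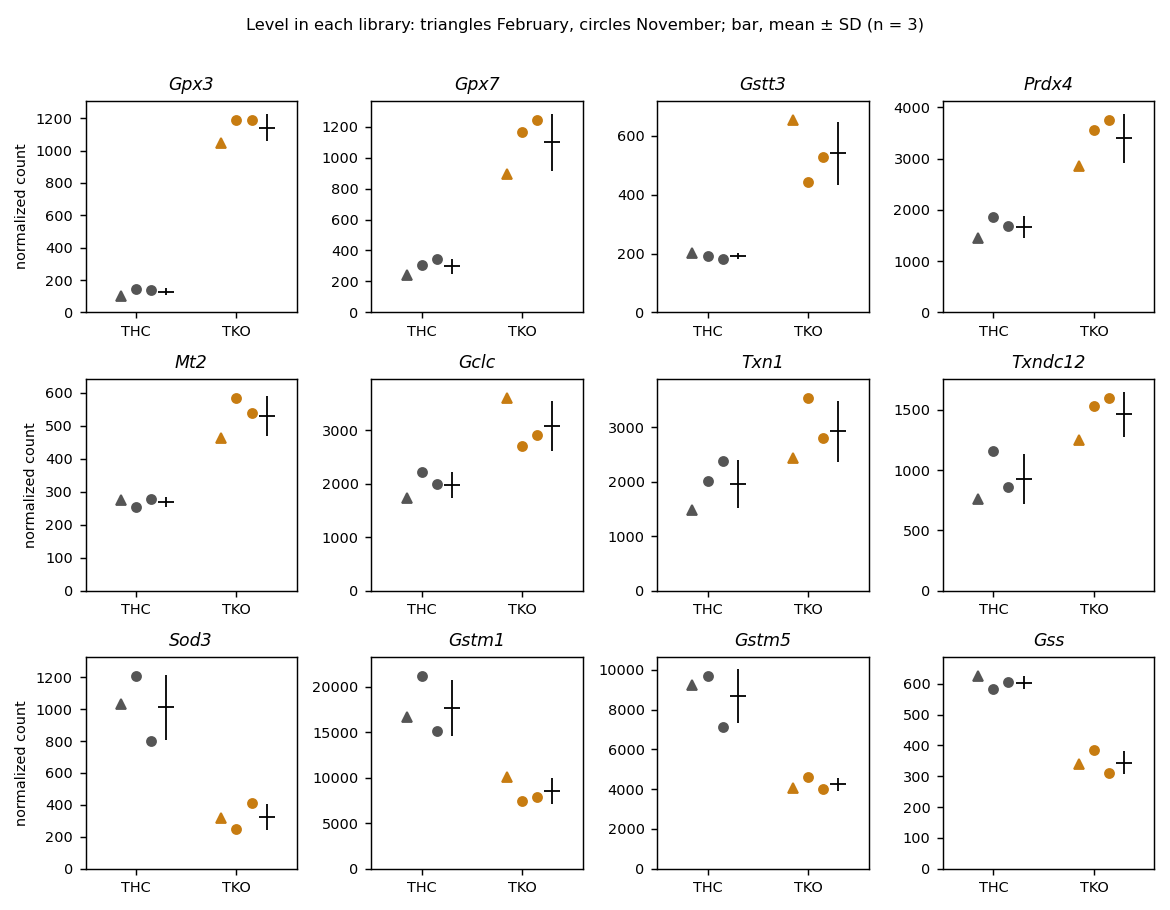
Normalized count (y axis, from 0) of 12 genes in each library, with THC in grey and TKO in orange; triangles are February and circles November libraries, and the black bar is the mean with its SD (n = 3). For each gene shown the TKO libraries all lie on 1 side of the THC libraries, and as a ratio of means the difference is widest for Gpx3 (128 and 1141).

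Of 16 cytosolic transferase genes tested, 5 fell (Gstm1, Gstm5, Gstm7, Gstp1 and Gsto1), 1 rose (Gstt3) and 10 were not called, with a median log2 change of -0.24. That is 37.5% called, against 27.9% of all genes (13.6% lower, 14.3% higher), and the imbalance between falls and rises was not tested. The mu class is encoded by a cluster on chromosome 3 (107895821 to 108044894), and there the 3 genes with the highest levels fell while the scarce ones did not pass. Gstm1, the most abundant of the defence genes per exon length, was at 16681, 21174 and 15181 in THC and 10133, 7496 and 7889.6 in TKO. It fell by 1.05 (SE 0.18, adjusted p = 0.00089), and both batches show the drop (-0.72 for the February pair, -1.22 for November). Gstm5, at the other end of the cluster, was at 9239, 9674 and 7108 in THC and 4074, 4626 and 4004 in TKO and fell by 1.02 (SE 0.15, adjusted p = 0.00037). It overlaps 4933431E20Rik on the opposite strand over 13.9% of its exon length, and that gene fell too (log2 change -0.88). Gstm7 was at 897, 1194 and 874 in THC and 618, 582 and 546 in TKO, a fall by 0.75 (SE 0.15, adjusted p = 0.0032).

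Between them lie Gstm2, Gstm6 and Gstm3, and beyond Gstm1 lies Gstm4, all of low level. Gstm2 was at 53.1 to 105 in THC and 91.7 to 135 in TKO (log2 change 0.58, adjusted p = 0.15), Gstm4 at 234 to 278 and 250.4 to 318 (0.15, adjusted p = 0.59) and Gstm6 at 47.1 to 87.8 and 38.7 to 75.3 (-0.21, adjusted p = 0.71), and Gstm3 was below the filter. The mu-class pseudogene Gstm2-ps1, on chromosome 5, was at 582 to 884 in THC and 323 to 448 in TKO and fell by 0.97 (SE 0.18, adjusted p = 0.0019). Since 46.9% of its 50-base windows also occur in other transcripts, mostly those of Gstm1, its reads cannot be told apart from Gstm1 reads over that part, and 18.9% of the Gstm1 windows are shared in the same way.

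Gstt3, a theta-class transferase (chromosome 10, 75774115 to 75781414), was the only transferase called higher. It was at 202, 193 and 182 in THC and 655, 442 and 527 in TKO, so the groups were far apart. The rise was 2.77-fold (log2 change 1.47, SE 0.17, adjusted p = 5.2e-05). Of its 50-base windows 12.5% also occur in other transcripts, mostly of Gm20441, which is listed at 0 in every library. Its neighbours Gstt1 (735 ± 38.6 and 750 ± 30.0, log2 change 0.03, SE 0.13, adjusted p = 0.89) and Gstt2 (178 ± 58.8 and 235 ± 1.72, log2 change 0.45, SE 0.24, adjusted p = 0.19) did not pass, and Gstt2 passed only without THC 2 (0.72, adjusted p = 0.034).

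Gstp1, the pi-class form, was at 1798, 2215 and 2333 in THC and 1409, 1700 and 1459 in TKO and fell by 0.47 (SE 0.12, adjusted p = 0.013), a call that ended without TKO 3 (adjusted p = 0.062). Its close copy Gstp2 was at only 2.83 to 8.02 in THC and 13.5 to 19.3 in TKO (log2 change 1.35, SE 0.56, adjusted p = 0.097), and 54.3% of its windows are shared with other transcripts, mostly Gstp1. Gsto1, of the omega class, fell by 0.54 (SE 0.15, adjusted p = 0.020), from 541 ± 110 (SD, n = 3) to 368 ± 33.4. It was not called when THC 2, TKO 2 or TKO 3 was left out (adjusted p = 0.089, 0.078 and 0.062). Gsta4, which detoxifies lipid aldehydes, was at 1314, 1951 and 1408 in THC and 1223, 966 and 1214 in TKO (log2 change -0.44, SE 0.17, adjusted p = 0.066), and Gstz1 and Gsta3 had overlapping groups. None of the 3 membrane-bound transferases passed. For Mgst1 the log2 change was -0.40 (SE 0.16, adjusted p = 0.082), and Mgst3 stood at -0.36 (SE 0.14, adjusted p = 0.079). For both, the TKO libraries were all below the THC libraries, and Mgst2 was at 0 to 19.8.

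**Figure D3:**
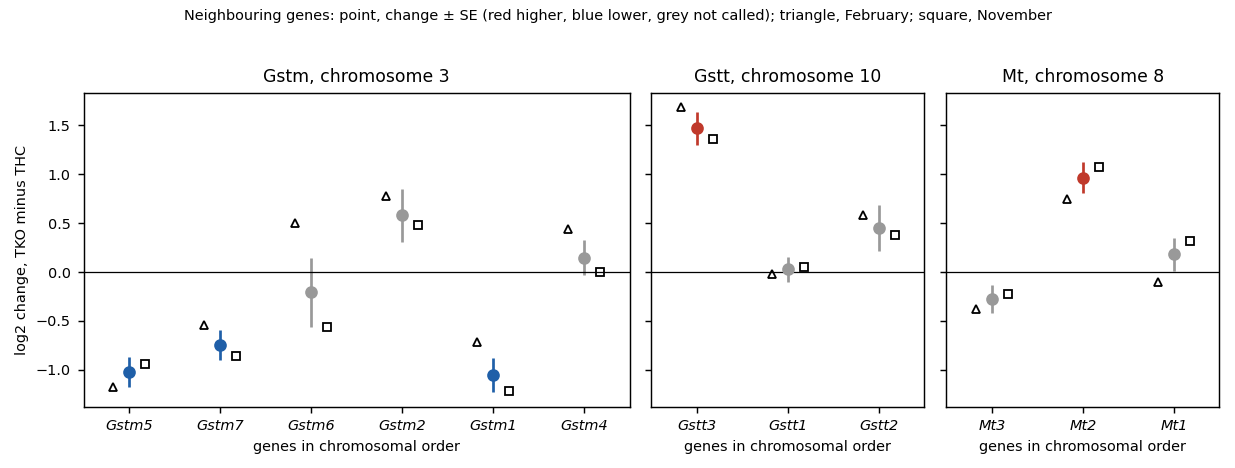
Log2 change between TKO and THC (y axis) of tested neighbouring genes in chromosomal order for the Gstm, Gstt and Mt clusters; filled points are estimates with SE (red higher, blue lower, grey not called), open triangles the February and open squares the November difference. Gstm5, Gstm7 and Gstm1 lie below 0 in both batches, and Gstt3 and Mt2 stand above their neighbours.

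Peroxiredoxins were among the most abundant defence genes, and only Prdx4 was called. Prdx4, the peroxiredoxin of the endoplasmic reticulum (chromosome X, 155323918 to 155340754), was at 1447, 1864 and 1685 in THC and 2861, 3563 and 3756 in TKO. Its groups were well apart in both batches, and it rose 2.03-fold (log2 change 1.02, SE 0.12, adjusted p = 5.4e-05). Prdx6, which has both peroxidase and phospholipase activity and is strongly expressed by astrocytes, had the highest normalized count of all: 45181, 42104 and 32157 in THC and 32348, 29249 and 29047 in TKO. Only THC 3 reached into the TKO range. The log2 change was -0.38 (SE 0.20) with an adjusted p of 0.18 by limma, whereas the authors' deposited table gives -0.39 and an adjusted p of 0.030. Of 23 defence genes with an adjusted p under 0.05 in the authors' deposited table, Prdx6 is the 1 that was not called by limma.

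Prdx1 and Prdx2, the common cytosolic forms, differed little. Prdx1 was at 12317, 12447 and 11812 in THC and 13517, 14650 and 13241 in TKO (log2 change 0.18, SE 0.15, adjusted p = 0.41), with groups that do not overlap but lie close. Prdx2, which is also plentiful in red blood cells, was at 9306, 10676 and 13412 in THC and 7775, 11233 and 8910.5 in TKO (log2 change -0.26, SE 0.16, adjusted p = 0.25), beside a red blood cell list that was lower in TKO. The part those cells play in the Prdx2 values was not tested. The mitochondrial Prdx3 was at 1587, 1602 and 1348 in THC and 1303, 1483 and 1440.0 in TKO (log2 change -0.10, SE 0.13, adjusted p = 0.61). Prdx5, found in several compartments, was at 936, 1027 and 883 in THC and 816, 1159 and 737 in TKO (log2 change -0.10, SE 0.17, adjusted p = 0.72).

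In the thioredoxin system, the cytosolic thioredoxin gene Txn1 rose, Txnrd3 fell and the other reductases were not called. Txn1 was at 1488, 2009 and 2375 in THC and 2439, 3541 and 2806 in TKO. The lowest TKO library was just above the highest THC library, while within each batch the TKO libraries were clearly higher. It rose by 0.59 (SE 0.14, adjusted p = 0.0066), or 0.71 for the February pair and 0.53 for November. Without a trend on mean level in limma, Txn1 was not called (adjusted p = 0.062). Txnrd1, the reductase that serves it, was at 4019, 4019 and 4291 in THC and 4852, 4594 and 3646 in TKO (log2 change 0.08, SE 0.14, adjusted p = 0.73). The mitochondrial pair did not pass either: Txn2 was at 2306, 2553 and 2765 in THC and 1878, 2448 and 1925 in TKO (-0.29, SE 0.13, adjusted p = 0.11). Txnrd2 was at 399, 464 and 355 in THC and 314, 287 and 267 in TKO (-0.48, SE 0.17, adjusted p = 0.051), just beyond the threshold.

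Txnrd3, a reductase known mainly from testis, was scarce, at 223, 209.7 and 197 in THC and 165, 102 and 126 in TKO. It fell by 0.70 (SE 0.21, adjusted p = 0.026), and it was not called when THC 2, THC 3, TKO 2 or TKO 3 was left out (adjusted p = 0.086, 0.069, 0.12 and 0.062). Txnip, which binds and inhibits thioredoxin, was at 2370, 3737 and 3137 in THC and 2759, 2797 and 3054 in TKO (-0.08, SE 0.14, adjusted p = 0.72), and Txnl1, a proteasome-associated relative, had a change of 0.36 (SE 0.14, adjusted p = 0.068). Of 7 tested proteins with thioredoxin domains, Txndc12, an oxidoreductase of the endoplasmic reticulum, rose, and the membrane-anchored Txndc11 and Txndc15 fell. Txndc12 was at 760, 1161 and 860.4 in THC and 1253, 1536 and 1599 in TKO (log2 change 0.67, SE 0.14, adjusted p = 0.0034). Txndc15 was at 1648 to 1937 in THC and 1116 to 1350.2 in TKO (log2 change -0.54, SE 0.13, adjusted p = 0.0082), and the call ended without THC 1 or TKO 1 (0.069 for each). Txndc11 was at 587 to 773 in THC and 416 to 496 in TKO (-0.54, SE 0.14, adjusted p = 0.014), and its call ended without any library other than THC 3 and TKO 3 (adjusted p from 0.053 to 0.069). Txndc5, Txndc9, Txndc16 and Txndc17 were not called, with log2 changes from -0.28 to 0.11. Txnl4a and Txnl4b, which the symbol rule takes in but whose products belong to the splicing machinery, had changes of -0.09 and 0.05.

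Of the superoxide dismutases and catalase, Sod3 and Cat fell, and Sod1 and Sod2 were not called. Sod3, the secreted extracellular form (chromosome 5, 52363791 to 52371418), was at 1030.4, 1206 and 801 in THC and 318, 248 and 409 in TKO. The highest TKO library was well below the lowest THC library, and the means were 1012 ± 203 and 325 ± 80.9. It fell by 1.64 (SE 0.20, adjusted p = 9.9e-05), and the batches hardly differed (-1.69 for the February pair, -1.62 for November). Cat, the peroxisomal catalase, was at 3860.1, 3718 and 3185 in THC and 2645, 2186 and 2045 in TKO and fell by 0.65 (SE 0.12, adjusted p = 0.0020). Mitochondrial Sod2 was at 1689, 1757 and 1990 in THC and 1465, 1479 and 1289 in TKO. Its groups did not overlap, but the change of -0.36 (SE 0.13, adjusted p = 0.052) did not pass, and 21.0% of its windows occur in transcripts of other genes. Cytosolic Sod1 was at 1068, 1401 and 1413 in THC and 1029, 1255 and 1255 in TKO (-0.13, SE 0.12, adjusted p = 0.46). Catalase is also abundant in red blood cells, whose markers were lower in TKO (5 of 5 tested), and the part this plays was not tested.

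Of the inducible stress enzymes, Hmox1, the heme oxygenase that is a classical NRF2 target, was at 274, 166 and 201 in THC and 438, 255 and 262 in TKO. Its groups overlap, because THC 1 of February exceeds both November TKO libraries, and it rose by 0.56 (SE 0.18, adjusted p = 0.033). With no batch term the change was the same but was not called (adjusted p = 0.16). The call also ended without any library other than THC 3, with adjusted p from 0.080 to 0.13. Heme oxygenase 1 is also made by microglia and macrophages, whose marker list summed to 3284 in THC and 5563 in TKO in February and to at most 1328 in any November library. The part these cells play in the Hmox1 values was not tested. Nqo1, a quinone reductase and another NRF2 target, was at 432, 443 and 382 in THC and 611, 406 and 473 in TKO (log2 change 0.23, SE 0.16, adjusted p = 0.32).

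Metallothioneins, small cysteine-rich proteins that hold zinc and copper, were split as well. They lie within 27721 bases on chromosome 8 in the order Mt3, Mt2, Mt1. Mt1 was the most abundant, at 7697, 8177 and 5650.4 in THC and 7196, 8717 and 8260.5 in TKO (log2 change 0.18, SE 0.17, adjusted p = 0.47). Mt2, on the contrary, was at 276, 253 and 279 in THC and 464, 585 and 539 in TKO. Its THC libraries lay within a narrow range and every TKO library was well above it, and Mt2 rose by 0.97 (SE 0.16, adjusted p = 0.00071). Gm45774 covers 73.5% of the Mt2 exon length on the opposite strand and had 25.1 to 67.1 in any library. The libraries keep no strand, and how reads over exons of both genes were counted was not given. The Gm45774 counts therefore do not show how the overlap affects Mt2, and the level of Mt2 beside Mt1 and Mt3 is uncertain. Mt3, the brain form, was at 4722, 5978 and 4363 in THC and 3633, 4412 and 4329.7 in TKO (log2 change -0.28, SE 0.14, adjusted p = 0.18).

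The upstream windows of Mt2 and Mt1 are shown because these neighbours have the same regulator, MTF1, and differed in TKO (RefSeq, GRCm38.p6, plus strand; Mt2, chr8:94172368-94172617; Mt1, chr8:94178839-94179088). Capitals mark TGCNCNC or TGACNNNGC on either strand.
Mt2: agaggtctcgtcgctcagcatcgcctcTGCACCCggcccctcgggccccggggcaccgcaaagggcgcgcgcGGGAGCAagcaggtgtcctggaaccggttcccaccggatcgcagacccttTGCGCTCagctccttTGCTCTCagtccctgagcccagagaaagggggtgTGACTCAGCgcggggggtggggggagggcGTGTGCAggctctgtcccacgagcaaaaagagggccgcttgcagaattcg
Mt1: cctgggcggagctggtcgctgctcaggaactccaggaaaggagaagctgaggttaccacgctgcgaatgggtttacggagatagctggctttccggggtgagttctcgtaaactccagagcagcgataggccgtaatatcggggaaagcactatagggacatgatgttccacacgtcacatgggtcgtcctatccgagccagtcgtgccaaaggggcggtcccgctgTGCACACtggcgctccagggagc
With the 50 bases after the start, which are not printed, the Mt2 window held 6 matches to the metal response core and the Mt1 window 3. Each count rests on 1 annotated start, and matches beyond the window were not counted. Nothing is read from the difference between these neighbours. At least 6 matches were present in 0.225% of all windows in the table, and at least 1 match in 51.0%. Mt2 was the defence gene with the most, and it also has 1 match to the antioxidant response core. Mtf1 itself was at 573 to 618 in THC and 615 to 695 in TKO (log2 change 0.11, SE 0.13, adjusted p = 0.59).

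Levels were compared between genes as normalized counts per kb of exon, with exon lengths from GENCODE M21. In THC the order was led by Gstm1 (12002), Prdx6 (8288), Gstm5 (6787), Mt1 (5758), Mt3 (4710.1) and Prdx1 (4007), and in TKO by Mt1 (6467), Prdx6 (6290) and Gstm1 (5775). On this scale Gpx3 went from 70.5, near the bottom of the order, to 629.5, close to the level of Gpx1 (609.5). The summed normalized counts of all 79 genes made up 0.962 to 1.11% of a THC library and 0.872 to 0.884% of a TKO library, and Prdx6 alone was 20 to 27.3% of that sum.

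**Figure D4:**
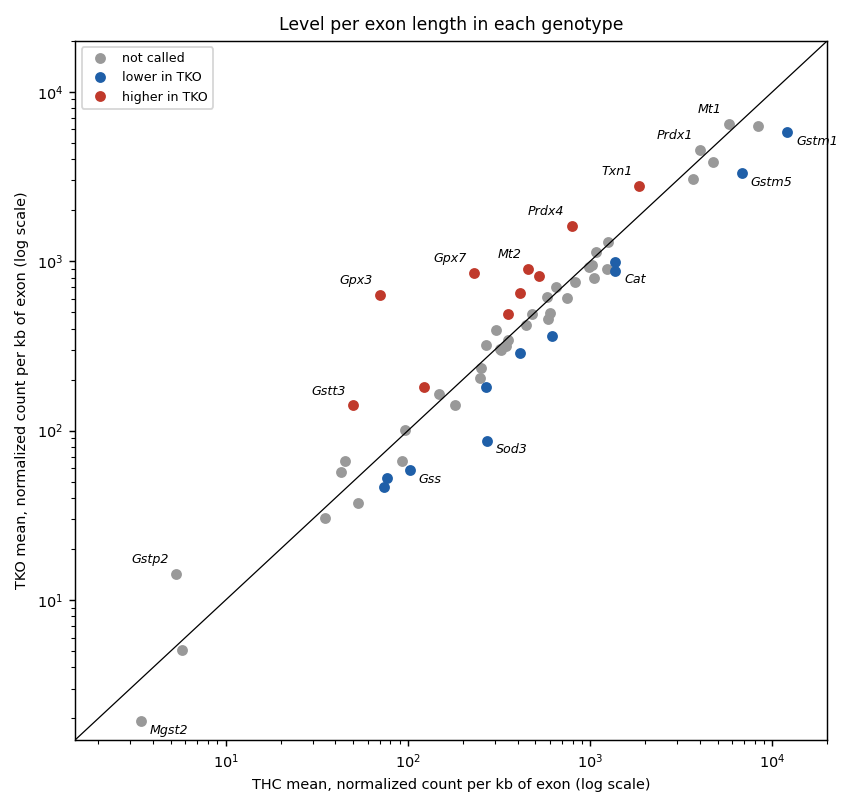
Mean normalized count per kb of exon in THC (x axis) and TKO (y axis), both on log scales, for 59 tested genes; the line marks equal levels and colour marks called genes. Gpx3, Gpx7, Gstt3 and Prdx4 lie above the line at low to middle levels, and Gstm1 and Gstm5 lie below it at the high end.

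Grouped by where the proteins act, a grouping made after the values were seen, 11 of the tested genes belong to the endoplasmic reticulum. Of these, 3 rose (Gpx7, Prdx4 and Txndc12), 2 fell (Txndc11 and Txndc15) and 6 were not called, with a median of -0.10, beside 14.3% higher and 13.6% lower among all genes. Nothing is read from these counts. None of the 4 genes of mitochondrial enzymes (Prdx3, Txn2, Txnrd2 and Sod2) was called, and each had a negative change (-0.10 to -0.48). Of the secreted enzymes, Gpx3 rose and Sod3 fell. Among 6 tested genes for selenoproteins, Gpx3 rose, Txnrd3 fell and Gpx1, Gpx4, Txnrd1 and Txnrd2 were not called.

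Other genes of glutathione and redox metabolism were read from a list of 71 symbols. Of the 71 rows tested, 11 rose and 21 fell, with a median of -0.05, which is 45.1% called against the 27.9% of all genes. Nfe2l2, which encodes NRF2, was at 2529, 1893 and 1847 in THC and 3611, 3182 and 3385 in TKO. Every TKO library was higher, and it rose by 0.71 (SE 0.12, adjusted p = 0.0010). Keap1, its inhibitor, was at 410.0 to 603 and 455 to 521 (log2 change 0.03, SE 0.17, adjusted p = 0.93), and Bach1, a repressor at the same elements, at 114 to 148 and 118 to 171 (0.17, SE 0.24, adjusted p = 0.64). Slc7a11, the cystine transporter, was at 2450, 1193 and 1136 in THC and 2414, 1852 and 2136 in TKO. The February libraries hardly differ and the November ones do (log2 changes of -0.02 and 0.77), and the rise of 0.51 (SE 0.16, adjusted p = 0.034) does not describe both batches.

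The rises with the smallest adjusted p on that list were Ephx1, microsomal epoxide hydrolase (log2 change 2.11, SE 0.16, adjusted p = 3.7e-06), Ptgr1 (1.44, adjusted p = 0.00036), Sesn2, a stress-inducible sestrin (1.32, adjusted p = 0.00016), and Selenoh (1.05, adjusted p = 0.00036). Srxn1, which repairs over-oxidised peroxiredoxins, rose by 0.79 (SE 0.15, adjusted p = 0.0017). The falls with the smallest adjusted p were Sesn1 (-0.93, SE 0.13, adjusted p = 0.00020), G6pdx, which makes NADPH at the entry of the pentose phosphate pathway (-0.95, SE 0.14, adjusted p = 0.00036), Gstcd (-1.19, SE 0.20, adjusted p = 0.00095) and Idh1, a cytosolic source of NADPH (-1.12, SE 0.20, adjusted p = 0.0013). Larger falls in log2 terms, with a larger adjusted p, were those of the scarce Ggt5 (-1.82, SE 0.34, adjusted p = 0.0018) and Ggt1 (-1.62, SE 0.37, adjusted p = 0.0063), which break down extracellular glutathione. Of other NADPH enzymes on the list, Pgd fell by 0.55, Me2 rose by 0.70, and Me1, Idh2 and Nnt were not called. Cbs and Cth, which make cysteine from homocysteine, fell by 0.75 and 0.74.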

How the data were processed

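RNA-seq was measured in 3 THC and 3 TKO samples, grouped by their titles. Per the submitters' processing notes, the tools were HISAT2, featureCounts, Subread and DESeq2, and the build GRCm38. Tool versions, the annotation and the handling of multi-mapping reads were not given in the sources used here. The authors' deposited table holds a normalized count per gene and library, a signal scaled by 1 factor per library, and, per the file headers, a log2 fold change with its SE, a Wald score and a weight score, and a p-value and adjusted p-value per gene. In each library all values were whole multiples of 1 step (within 0.001), and dividing by it gave the reads quoted as depth. A count model was planned for a table of counts; since it holds normalized values, limma (version 3.58.1, R 4.3.3) was used on log2(normalized count + 1) with a trend on mean level and terms for batch and genotype. It had 3 residual and 8.90 prior degrees of freedom. Genes with a normalized count of at least 10 in at least 3 libraries were tested, adjusted by Benjamini-Hochberg over 17278 genes and called at an adjusted p under 0.05. SDs are over the 3 libraries of a genotype.

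The genes and lists were chosen with earlier results of these data known. Full values were given for called genes with a log2 change of at least 0.58 in size and a mean of at least 100, and for a panel of central genes whether called or not. For the list of other pathway genes, the 4 smallest adjusted p in each direction and 5 fixed genes were named; the others named there were picked after their values were seen. Exons, coordinates (whole gene spans) and shared 50-base windows came from GENCODE M21, which matched all 79 genes. On simulated data with 17354 genes the share of set changes that limma found was 35.8% at 1.5-fold, 94.0% at 2-fold and 100% at 4-fold, and it called 8 unchanged genes. Only 67, 67 and 66 genes were changed at these folds, each with a mean of at least 50. All genes had the same dispersion, and there was no batch difference. Far more genes were called in the real data, so these shares do not carry over to it.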

Additional observations from a re-analysis of the deposited data

How the results depend on the processing

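All 22 called genes kept their sign in each of 16 alternatives, and 13 kept their call in each: Cat, Gpx3, Gpx7, Gss, Gstm1, Gstm2-ps1, Gstm5, Gstm7, Gstt3, Mt2, Prdx4, Sod3 and Txndc12. The sign could not change in all of them. With no batch term, the replicate block, no filter, a minimum of 50 or no intensity trend, the log2 change itself stays the same. Leaving out THC 1, TKO 1 or both gives the same estimate, that of November. Without an intensity trend 15 defence genes were called, the fewest of any setting, and 14 of these were among the 22. The calls of Gclc, Gsr, Gsto1, Gstp1, Hmox1, Txn1, Txndc11 and Txndc15 ended there. In that setting 6 defence genes rose, against 10, and 1484 of all genes fell, against 2345, and the cause was not tested. Between 17 and 23 defence genes were called when a library was left out, and 18 within November. Deviations of THC and TKO libraries with the same replicate number had r = 0.23, -0.11 and 0.14 across genes for numbers 1, 2 and 3. Libraries with different numbers had r from -0.28 to 0.18, and number 1 is also the February batch. The numbers were therefore not taken as pairs. With the replicate block 21 defence genes were called, all among the 22, and Hmox1 was lost. Other settings (no batch term, pseudocounts of 0.5 and 5, no filter or a minimum of 50, quantile normalization) gave 19 to 25 calls, as did scaling by a trimmed mean of M-values, which was added after the data were seen in place of the planned edgeR factors, which were not run. Quantile normalization moved the median of all genes by -0.03. Of the defence genes not called, 9 passed in some alternative. Sod2 and Txnrd2, just beyond the threshold, passed under 3 and 2 settings. Gsta4 passed without THC 1, without TKO 1 and within November (log2 change -0.61 in each). The others were Gsto2, Gstt2, Mgst1, Mt3, Txn2 and Txndc9. With 3 libraries a genotype, small changes can be missed. A gene not called was not shown to be equal.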
